A study of Homo sapiens with 6 samples.

Results

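The CLK and SRPK kinases and DYRK1A, 7 genes of the 63643 in the count table, were followed in cells of HEK293T, an established line from human embryonic kidney. All samples were ΔGLO1 cells in high-glucose medium, which lack the glyoxalase that detoxifies methylglyoxal. The 3 MGO libraries came from such cells exposed to 60 µM methylglyoxal (MGO), a reactive by-product of glycolysis, for 4 h. This dose is that of the treatment protocol; the column names of the MGO libraries carry a different number, whose meaning is not stated. The 3 Control libraries came from untreated ΔGLO1 cells, so neither group represents the parental line, and the labels do not say whether the ΔGLO1 line is a single clone. The members were chosen by name, as rows whose gene name equals CLK1, CLK2, CLK3, CLK4, SRPK1, SRPK2 or DYRK1A, and with their MGO and Control values already known. Their differences between the groups are therefore given as descriptions, without a test.

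SR proteins are splicing factors with a tail rich in arginine and serine, the RS domain, and phosphorylation of this tail decides where they sit and what they bind. SRPK1 and SRPK2 work mainly in the cytoplasm, where they phosphorylate SR proteins so that the import receptor transportin-SR (TNPO3) carries them into the nucleus. The CDC2-like kinases CLK1 to CLK4 are nuclear, have an RS domain of their own and phosphorylate further serines, which releases SR proteins from nuclear speckles. DYRK1A, a dual-specificity kinase encoded on chromosome 21, phosphorylates several splicing factors and also acts on NFAT factors and cell cycle regulators.

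MGO libraries held 128270160 to 138680220 counts each, and Control libraries 117427883 to 157639431. Levels are CPM, a gene's counts per 1000000 counts of its library, after TMM scaling, a correction for library composition, unless named otherwise. GLO1 itself had 106, 102 and 97.3 CPM in MGO libraries and 37.6, 36.3 and 38.0 CPM in Control libraries. Without the position of the deletion, GLO1 counts are no check of the genotype. The 6 HEK293T-expressed markers summed to 1891 to 2136 CPM in MGO and 788.6 to 839.2 CPM in Control. KRT8 was the highest of them in MGO, at 981 ± 67.8 CPM in MGO and 329 ± 7.27 CPM in Control, and VIM in Control, at 699 ± 36.8 CPM in MGO and 377 ± 16.0 CPM in Control (SD, n = 3 each). None was at 0 in any library. These sums were carried by KRT8, VIM and KRT18, while PAX2 had 1.71 CPM in MGO and 6.59 CPM in Control, and NEFM 0.555 CPM in MGO and 1.457 CPM in Control. KRT18, PAX2 and NEFM are named here after their values were seen. The 5 fibroblast markers summed to 5.21 to 5.78 CPM in MGO and 14.2 to 15.4 CPM in Control, mostly COL1A1. COL1A2 was at 0 in 1 library of each group and DCN in 1 MGO library. The 5 blood cell markers summed to 0.620 to 1.06 CPM in MGO and 0.232 to 0.402 CPM in Control. LYZ had the highest MGO mean through replicate 1 alone, at 0.673, 0.0885 and 0.0960 CPM in MGO, against 0.0351, 0.0634 and 0.0403 CPM in Control. SPI1 was above it in MGO replicates 2 and 3, at 0.3274 and 0.3141 CPM, and was the highest in Control, at 0.0702, 0.190 and 0.115 CPM. PTPRC was at 0 in 1 MGO library and HBA1 in 1 Control library. The part of these markers in the results was not tested.

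CLK1, CLK3 and CLK4 transcripts were higher after MGO, DYRK1A was higher by less, and SRPK1 and SRPK2 were lower. The 3 MGO libraries lay above the 3 Control libraries for 4 members and below them for 2, where 39.7% of all 23109 genes tested lay above and 41.8% below (81.5% in all). The remaining member, CLK2, had almost no counts and was not tested. By the edgeR quasi-likelihood test at an adjusted p under 0.05, 38.8% of all genes were raised and 40.5% lowered, 79.3% together. Because the members were picked from this contrast, nothing is read from their count beside these shares. In RNA from a bulk culture, fewer cells with a transcript and less of it per cell cannot be told apart.

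CLK1 (chromosome 2, 200853009 to 200864744, minus strand of GRCh38), the best studied of the nuclear kinases, had 504, 429 and 424 CPM in MGO libraries, against 69.6, 65.3 and 65.6 CPM in Control libraries. Its lowest MGO library stood far above its highest Control library, and MGO replicate 1 was the highest of all. The means were 452 ± 45.2 and 66.8 ± 2.39 CPM (SD, n = 3 each), a log2 fold change of 2.76 (SE 0.08) for MGO over Control. Over the whole table, 359 of the 23109 genes tested, CLK1 included, had a log2 fold change of at least this size. The CLK1 span overlaps a Y RNA gene on the same strand, and the row of that name held 1441 to 1853 counts.

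CLK3 (chromosome 15, 74598500 to 74645414, plus strand), a further nuclear kinase, had 284, 270 and 270 CPM in MGO libraries, against 77.4, 76.6 and 75.8 CPM in Control libraries. The groups were far apart and the libraries within each were close, with SDs of 7.79 CPM in MGO and 0.796 CPM in Control. The log2 fold change was 1.84 (SE 0.06). The CLK3 span overlaps EDC3, a gene on the opposite strand with 11137 to 17373 counts. The kit was stranded, but the strand setting of the counting is unknown, so reads from their overlap cannot be told apart.

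CLK4 (chromosome 5, 178602664 to 178630615, minus strand), the closest relative of CLK1, had 87.6, 74.5 and 73.1 CPM in MGO libraries, against 25.5, 25.4 and 24.7 CPM in Control libraries. As for CLK1, MGO replicate 1 was the highest and no MGO library reached down to a Control library. The log2 fold change was 1.64 (SE 0.08). The CLK4 span overlaps RN7SKP70, on the same strand, with 24 to 48 counts.

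CLK2 (chromosome 1, 155262868 to 155278491, minus strand) had no count in any MGO library, and in Control libraries it had none in replicates 1 and 3 and 1 in replicate 2. A count of 0 allows up to 0.0262 to 0.0273 CPM in MGO and up to 0.0173 to 0.0211 CPM in the Control libraries at 0 (3 counts, counting error only). The coding genes beside CLK2 were just as empty. ENTREP3 and SCAMP3 on one side and HCN3 and PKLR on the other completed a run of 5 consecutive coding genes with at most 4 counts in any library, in genome order. Beyond the run, next to PKLR, FDPS, a sterol pathway enzyme, had 21184, 24358 and 22665 counts in MGO and 14333, 17771 and 16855 in Control libraries. FDPS has pseudogene copies, so its counts are uncertain. These neighbours were named after their values were seen. The emptiness thus covers a stretch of chromosome 1 in both groups, its cause was not tested, and the 0 is not read as absent CLK2 expression. The pseudogene row CLK2P1 held 0 to 7 counts.

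SRPK1 (chromosome 6, 35832966 to 35921342, minus strand), the founding SRPK, had 56.9, 48.7 and 46.8 CPM in MGO libraries, against 110, 114 and 114 CPM in Control libraries. Every MGO library was below every Control library, and the log2 fold change was −1.15 (SE 0.08). Its span overlaps LHFPL5 on the opposite strand, which had 276 to 1410 counts.

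SRPK2 (chromosome 7, 105110704 to 105399308, minus strand), its paralogue, had 52.9, 44.6 and 43.0 CPM in MGO libraries, against 82.8, 86.9 and 88.0 CPM in Control libraries. It too was lower in every MGO library, with a log2 fold change of −0.88 (SE 0.08). SRPK2 overlaps KMT2E, on the opposite strand, with 8899 to 15498 counts. The pseudogene rows SRPK2P and CLK3P2 held at most 1 and 3 counts.

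DYRK1A (chromosome 21, 37365573 to 37526358, plus strand) had 171, 144 and 143 CPM in MGO libraries, against 78.9, 86.1 and 87.8 CPM in Control libraries. The groups did not overlap, and the log2 fold change was 0.86 (SE 0.08). MGO replicate 1 had the highest value among MGO libraries for all 6 members with counts, also for both SRPK genes.

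**Figure D1:**
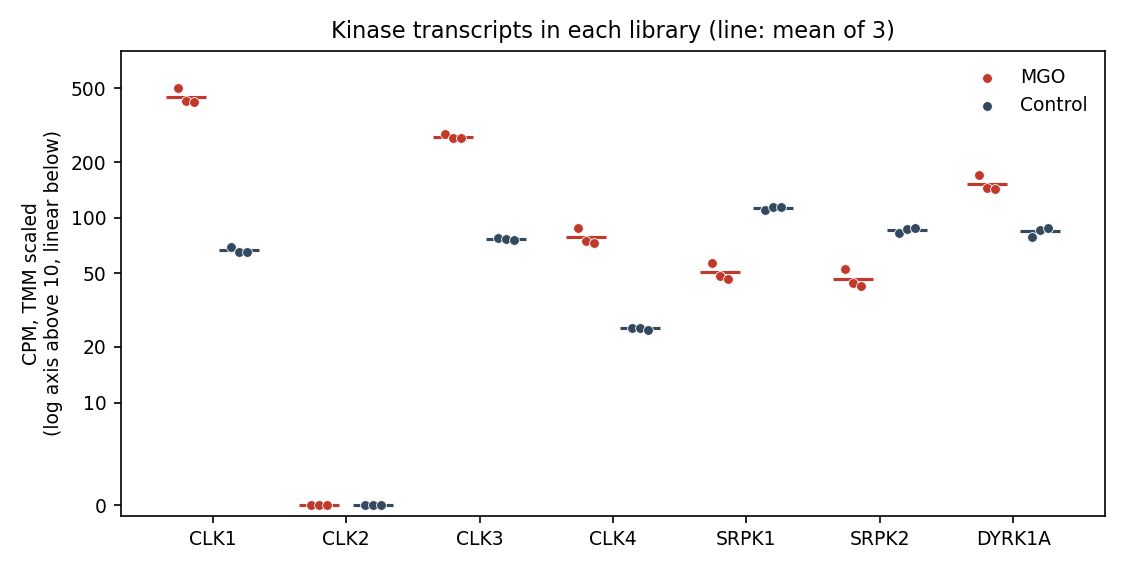
TMM-scaled CPM of the 7 kinases (y axis, logarithmic above 10 and linear below) in each of 3 MGO and 3 Control libraries (points), with the mean as a line. CLK1, CLK3, CLK4 and DYRK1A are higher in every MGO library, SRPK1 and SRPK2 lower, and CLK2 lies at or near 0 in both groups.

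These values depend on the scaling, which without spike-in RNA is relative. With library size alone, log2 fold changes over all genes moved by a median of −0.53, and 5673 genes were called raised and 12885 lowered (30.6% raised), in place of 8964 and 9362 (48.9%). Under that scaling CLK1 stood at 2.23, CLK3 at 1.32, CLK4 at 1.11 and DYRK1A at 0.33, and SRPK1 and SRPK2 at −1.67 and −1.40. All 6 members kept their direction.

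Ratios between members of the same library do not depend on the scaling factor of the library, though a correction for length moves them. Levels per kilobase of transcript (CPM divided by the median length of the coding transcripts in GENCODE, the human gene annotation, release 29) were used for them. The ratio of CLK1 to CLK4 was 5.97, 5.97 and 6.01 in MGO libraries, against 2.83, 2.67 and 2.76 in Control libraries. CLK1 thus gained on its closest relative, and the 3 MGO libraries held nearly the same ratio although their CPM differed. CLK1 to CLK3 was 1.97 ± 0.139 in MGO and 1.045 ± 0.0290 in Control (SD, n = 3 each).

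The ratio of SRPK1 to SRPK2 was 0.878, 0.890 and 0.887 in MGO libraries, against 1.08, 1.07 and 1.06 in Control libraries. The groups did not overlap, but the difference was small, at −0.27 on the log2 scale. The ratio of DYRK1A to SRPK2 was 4.13 ± 0.0706 in MGO and 1.24 ± 0.0311 in Control (SD, n = 3 each). That of DYRK1A to CLK3 was 0.430 ± 0.0321 in MGO and 0.8535 ± 0.0560 in Control. Both ratios, and the shares given below, rest on the median length of DYRK1A. Per kilobase of the longest coding transcript, DYRK1A stood at 8.69 CPM per kb in MGO and 4.80 in Control. SRPK2 then stood at 12.7 in MGO and 23.2 in Control, above DYRK1A in both groups.

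CLK1 to SRPK1 was 21.3, 21.1 and 21.7 in MGO libraries, against 1.52, 1.37 and 1.38 in Control libraries, 15.01-fold apart. CLK1 stood at 2.65 and SRPK1 at −0.35 once the length trend was removed, closer to each other than the 2.76 and −1.15 behind this ratio. CLK1, CLK3 and CLK4 summed, over SRPK1 and SRPK2 summed, gave 16.3, 16.9 and 17.4 in MGO libraries, against 1.80, 1.67 and 1.65 in Control libraries. By these levels, the excess of the 3 measured CLK transcripts over the SRPK transcripts was large after MGO and modest in Control. With the length trend removed, SRPK2 stood at −0.33, in place of −0.88. CLK3 then stood at 1.85 and CLK4 at 1.55, in place of 1.84 and 1.64. The summed ratio was not recomputed in that way. Of the summed level of the 6 members with counts, CLK1 made up 50.1 ± 0.827% in MGO and 22.2 ± 0.954% in Control. The share of SRPK1 and SRPK2 was 2.35 ± 0.0607% and 2.65 ± 0.0832% in MGO, against 15.6 ± 0.207% and 14.6 ± 0.360% in Control. CLK4 held 8.38 ± 0.157% in MGO and 8.08 ± 0.184% in Control.

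**Figure D2:**
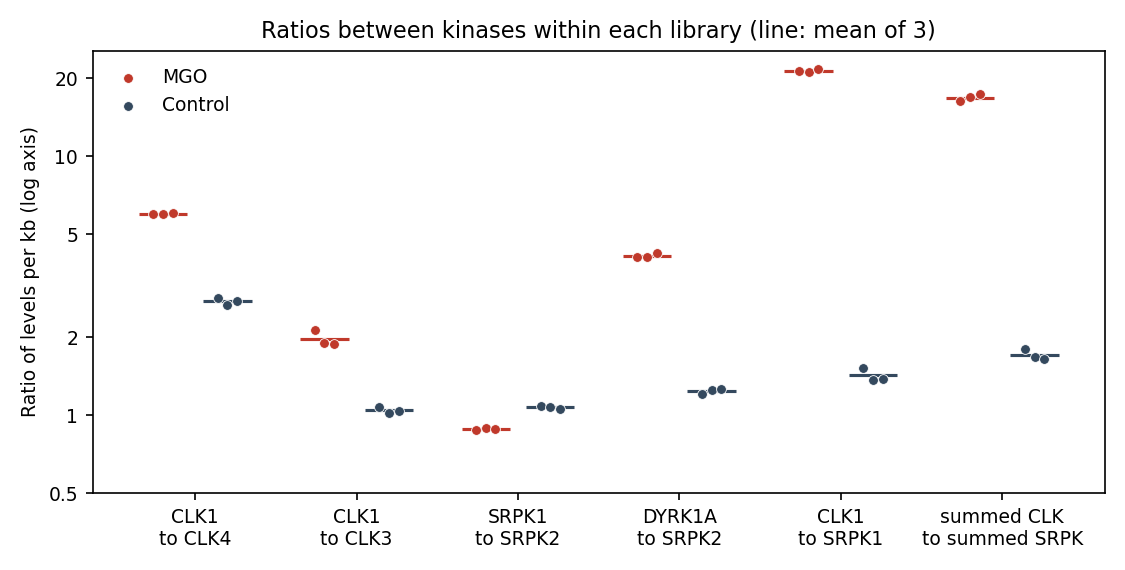
Ratios of levels per kilobase between kinases (y axis, logarithmic) within each of 3 MGO and 3 Control libraries (points), with the mean as a line. CLK1 to SRPK1 lies above 21 in MGO and below 2 in Control libraries, while SRPK1 to SRPK2 stays close to 1 in both.

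As a level per kilobase, the order in MGO libraries was CLK1 (242 ± 24.2 CPM per kb), CLK3 (123 ± 3.49), DYRK1A (53.0 ± 5.50), CLK4 (40.5 ± 4.13), SRPK2 (12.8 ± 1.46) and SRPK1 (11.4 ± 1.21). Only the last pair overlapped between libraries, at 11.8 to 14.5 CPM per kb for SRPK2 and 10.5 to 12.7 for SRPK1. In Control libraries the order was CLK1 (35.8 ± 1.28 CPM per kb), CLK3 (34.3 ± 0.356), DYRK1A (29.3 ± 1.64), SRPK1 (25.2 ± 0.506), SRPK2 (23.5 ± 0.743) and CLK4 (13.0 ± 0.231). Neighbours in this order did not overlap, though CLK1 and CLK3 came within 1 CPM per kb of each other. In MGO the members with counts spanned the 61.44 to 96.95 percentile of levels per kilobase over all coding genes tested, and in Control the 62.47 to 84.85 percentile. The place of DYRK1A rests on its length. Its coding transcripts run from 1590 to 17560 nt, and per kilobase of the longest one it stood at 8.69 CPM per kb in MGO and 4.80 in Control, the lowest of the 6 in both.

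Fold changes over the whole table followed transcript length, so each member was set beside the genes of its own length bin, of 40 bins. The transcripts of CLK1, CLK3 and CLK4 have 1865.5, 2233.5 and 1936 nt, and the upper quartiles of log2 fold change in their bins were 0.87, 0.77 and 0.74. The 3 CLK genes, at 1.64 or above, lay beyond these quartiles. DYRK1A, with 2881 nt, lay above its bin's upper quartile of 0.38 as well.

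SRPK1 and SRPK2 have longer transcripts, of 4474.5 and 3650 nt. The quartiles of their bins were −1.41 and −0.09 for SRPK1 and −1.24 and 0.14 for SRPK2, and both genes lay between them. With the length trend of every library removed, SRPK1 stood at −0.35 and SRPK2 at −0.33, CLK1 at 2.65, CLK3 at 1.85, CLK4 at 1.55 and DYRK1A at 1.10. The part of transcript length in the lower SRPK values was not tested beyond this.

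**Figure D3:**
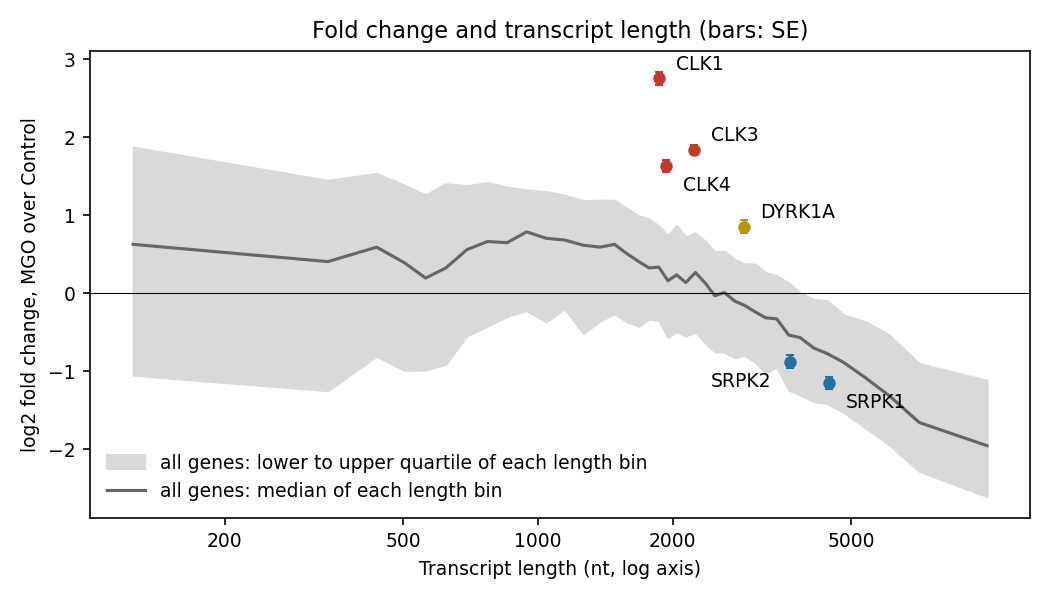
Log2 fold change of MGO over Control (y axis) against transcript length (x axis, logarithmic) for the 6 members with counts, with SE bars, over the median (line) and quartile range (grey) of all genes tested with a known length. The CLK genes and DYRK1A lie above the grey range, and SRPK1 and SRPK2 lie inside it.

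The CLK genes are known for transcripts that keep an intron in the nucleus or skip a coding exon, by which the kinases limit their own output. Gene-level counts do not separate such forms, so it is not known which of them the higher CLK values hold. GENCODE lists 15 transcripts of CLK1, of which 8 are annotated as retaining an intron and 2 as targets of nonsense-mediated decay (NMD). These 2 kinds make up 66.7% of the transcripts of CLK1, 66.7% of those of CLK4 and 40.7% of those of CLK3. For SRPK1, SRPK2 and DYRK1A the share was 46.2%, 26.7% and 16.7%, and the median over all 19805 coding genes matched was 14.3%. CLK2 had no such transcript among its 7.

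Promoter windows are shown to place the letters TGACG, part of the cAMP response element, in the members. For members with several windows, 1 that holds the match was chosen, so its presence there is no finding. Each window, from RefSeq on GRCh38.p14, holds 250 bases before and 50 after a start site, 5′ to 3′ on the gene's strand. Capitals mark TGACG, searched on both strands (so also as CGTCA), and the E-box CACGTG. The single window of SRPK1, which holds neither, is shown too. The windows are chr2:200864609-200864908 (minus strand) for CLK1, chr15:74615586-74615885 (plus) for CLK3, chr5:178627001-178627300 (minus) for CLK4, chr21:37366523-37366822 (plus) for DYRK1A, chr7:105269003-105269302 (minus) for SRPK2 and chr6:35921049-35921348 (minus) for SRPK1.
CLK1: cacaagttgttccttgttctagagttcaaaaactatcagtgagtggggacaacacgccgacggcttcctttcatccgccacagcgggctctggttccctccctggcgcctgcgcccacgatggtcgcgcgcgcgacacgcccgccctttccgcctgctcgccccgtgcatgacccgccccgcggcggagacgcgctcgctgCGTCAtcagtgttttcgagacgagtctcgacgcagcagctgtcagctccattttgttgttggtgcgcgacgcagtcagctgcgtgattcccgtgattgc
CLK3: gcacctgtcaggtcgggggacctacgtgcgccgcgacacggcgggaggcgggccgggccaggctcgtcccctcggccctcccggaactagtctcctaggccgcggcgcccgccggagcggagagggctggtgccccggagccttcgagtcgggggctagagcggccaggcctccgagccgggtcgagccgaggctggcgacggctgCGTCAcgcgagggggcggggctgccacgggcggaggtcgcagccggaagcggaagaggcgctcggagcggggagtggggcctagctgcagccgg
CLK4: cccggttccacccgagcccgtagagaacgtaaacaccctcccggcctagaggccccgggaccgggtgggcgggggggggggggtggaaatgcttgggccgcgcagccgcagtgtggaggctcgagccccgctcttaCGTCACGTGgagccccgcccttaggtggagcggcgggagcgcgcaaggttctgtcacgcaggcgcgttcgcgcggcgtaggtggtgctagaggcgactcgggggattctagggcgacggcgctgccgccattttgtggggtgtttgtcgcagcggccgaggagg
DYRK1A: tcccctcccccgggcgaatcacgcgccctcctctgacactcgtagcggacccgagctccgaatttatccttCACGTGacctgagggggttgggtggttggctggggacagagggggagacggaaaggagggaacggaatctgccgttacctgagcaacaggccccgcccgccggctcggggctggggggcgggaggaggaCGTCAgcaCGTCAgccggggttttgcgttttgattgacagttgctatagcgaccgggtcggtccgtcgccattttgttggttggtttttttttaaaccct
SRPK2: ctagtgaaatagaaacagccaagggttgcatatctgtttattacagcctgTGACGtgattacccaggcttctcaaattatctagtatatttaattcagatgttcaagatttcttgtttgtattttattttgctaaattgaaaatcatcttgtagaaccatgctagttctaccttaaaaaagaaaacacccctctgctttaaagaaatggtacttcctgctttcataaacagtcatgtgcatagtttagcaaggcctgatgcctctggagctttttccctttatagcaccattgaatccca
SRPK1: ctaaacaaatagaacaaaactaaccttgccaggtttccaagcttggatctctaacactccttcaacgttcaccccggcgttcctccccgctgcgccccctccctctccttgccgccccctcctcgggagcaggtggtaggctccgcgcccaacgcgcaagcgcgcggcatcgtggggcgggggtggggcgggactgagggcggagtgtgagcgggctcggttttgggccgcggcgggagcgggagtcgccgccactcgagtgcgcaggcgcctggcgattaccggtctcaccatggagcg

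The match begins 49 bases before the start site in CLK1, 44 in CLK3, 114 in CLK4, where it overlaps the E-box, 50 and 42 in DYRK1A, and 200 in SRPK2. These letters are common, being found in 24.6% of all 35116 windows, and in 6 of the 17 windows of the members (35.3%). Both CLK1 windows (which overlap and share the match), the CLK4 window, 1 of 2 windows of CLK3, 1 of 6 of DYRK1A and 1 of 4 of SRPK2 held them, and the single windows of SRPK1 and CLK2 did not. The full site TGACGTCA, of which TGACG is a part, was in 1.85% of all windows and in none of the members'. The serum response (CArG) box was in 1.29% of all windows and the heat shock element GAANNTTC in 6.77%, and neither was in a member's window. The AP-1 site TGANTCA (7.71% of all windows) was found in 1 DYRK1A window. The E-box CACGTG (7.26%) was in 1 window each of CLK2, CLK4 and DYRK1A, and the ETS site CCGGAA (17.2%) in 1 each of CLK3 and DYRK1A. A match is a description of the letters and not evidence of binding.

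Substrates, relatives and regulators of the kinases were tested with edgeR over all genes. Of 76 tested genes in the 5 lists, 33 rose and 32 fell, or 43.4% and 42.1%, close to the background of 38.8% and 40.5%. With library size alone 20 rose and 44 fell, where 5673 genes rose and 12885 fell over all 23109 tested. With the length trend removed 45 rose and 20 fell, where 9624 rose and 7360 fell over the 21700 tested genes with a known length. The lists were written with earlier results of these data known. Among 14 SR proteins, 10 rose and 2 fell, and their log2 fold changes had a median of 0.61, beside −0.02 over all genes tested. With library size alone, 6 rose and 4 fell. With upper quartile scaling 11 rose and none fell, where 10124 genes rose and 8312 fell over all 23109 tested.

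SRSF7, an SR protein that links splicing to mRNA export, had 941, 885 and 853 CPM in MGO libraries, against 264, 237 and 245 CPM in Control libraries. It rose by 1.84 (SE 0.07, edgeR adjusted p = 2.31e-10), the most of the SR proteins. TRA2B, an SR-like factor that promotes exon inclusion, rose by 1.54 (SE 0.07, adjusted p = 5.97e-10) to 707 ± 47.2 CPM in MGO, against 243 ± 1.21 CPM in Control. SRSF1, the founding SR protein and a classic SRPK1 substrate, fell by 0.33 (SE 0.07, adjusted p = 0.00143), at 157.7 ± 16.0 CPM in MGO and 198 ± 3.86 CPM in Control. The SRSF1 call ended under upper quartile scaling (adjusted p = 0.0687). SRSF11 fell by 0.24 (SE 0.09, adjusted p = 0.0241), but its groups overlapped, and the call ended without MGO replicate 2 or 3 or Control replicate 1 (adjusted p = 0.0984, 0.118 and 0.0759), and under upper quartile scaling (adjusted p = 0.462). SRSF11 turned to 0.07 once the length trend was removed (adjusted p = 0.49).

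Of 32 other proteins with an RS domain or close partners of SR proteins, 13 rose and 16 fell (median −0.10). The shares over all genes tested were 38.8% raised and 40.5% lowered. With the length trend removed 18 of the 32 rose and 10 fell, where 9624 rose and 7360 fell of the 21700 genes tested. With library size alone 8 rose and 20 fell, where 5673 rose and 12885 fell over all 23109 tested. CCNL1, which encodes cyclin L1, a nuclear speckle cyclin with an RS domain, had 655, 590 and 569 CPM in MGO libraries, against 62.1, 61.9 and 62.5 CPM in Control libraries. This was the largest rise in the 5 lists, 3.28 on the log2 scale (SE 0.07, adjusted p = 1.18e-11), larger than the value of CLK1. RSRC2, an RS-rich coiled-coil protein, rose by 2.13 (SE 0.09, adjusted p = 4.39e-10).

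SRRM2, a large scaffold protein of nuclear speckles, had 186, 124 and 134 CPM in MGO libraries, against 913, 995 and 956 CPM in Control libraries, a log2 fold change of −2.69 (SE 0.13, adjusted p = 1.45e-09). Its median coding transcript has 1207 nt and its longest 9353 nt. NKTR, a cyclophilin with RS repeats, had a log2 fold change of −1.92 (SE 0.12, adjusted p = 1.58e-08) and a transcript of 7319 nt. With the length trend removed NKTR stood at −0.46 (adjusted p = 0.000323) and SRRM2 at −3.01 (adjusted p = 6.73e-10). The removal used the median length, 1207 nt for SRRM2, so the SRRM2 value does not reflect its longest transcript. U2AF1, which is among the 13 raised, has a near-identical copy in the reference genome, so its counts are uncertain. It is named here after its values were seen.

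Of 8 related kinases tested, 1 rose and 6 fell (median −0.75), beside 38.8% raised and 40.5% lowered over all genes. Their median transcript length was 4004 nt, and all genes in the length bins around 3847 and 4130 nt had median log2 fold changes of −0.57 and −0.70. After removal of the length trend 3 rose and 4 fell, where 9624 rose and 7360 fell of the 21700 genes tested. HIPK2, a homeodomain-interacting kinase of the DYRK family, had 11.04, 8.83 and 10.1 CPM in MGO libraries, against 128, 170 and 167 CPM in Control libraries (log2 fold change −3.95, SE 0.12, adjusted p = 7.11e-11). SRPK3, the muscle paralogue of SRPK1 and SRPK2, had 1.10, 0.726 and 0.733 CPM in MGO libraries, against 7.16, 3.95 and 3.58 CPM in Control libraries (log2 fold change −2.52, SE 0.26, adjusted p = 1.92e-06). DYRK4 rose by 1.44 (SE 0.07, adjusted p = 1.01e-09), so relatives of DYRK1A were found on both sides. DYRK1B was listed at 0 in every library, which is not read as absent expression, and HIPK4 had too few counts to be tested.

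Of 16 genes for SR protein import, dephosphorylation and kinase regulation, 7 rose and 4 fell (median 0.11). Over all genes tested, 38.8% were raised and 40.5% lowered. With upper quartile scaling 11 of the 16 rose and 4 fell, where 10124 genes rose and 8312 fell over all 23109 tested. With library size alone 5 rose and 9 fell, where 5673 rose and 12885 fell over all genes tested. With the length trend removed 10 rose and 2 fell, where 9624 rose and 7360 fell of the 21700 genes tested. PPP1CA, a catalytic subunit of protein phosphatase 1, which removes phosphates from SR proteins, had 311, 376 and 351 CPM in MGO libraries, against 132, 131 and 132 CPM in Control libraries. Its rise was 1.39 (SE 0.07, adjusted p = 3.22e-09). Of the other catalytic subunits listed, PPP1CB fell by 0.45 (SE 0.08, edgeR adjusted p = 0.000329), and PPP1CC, at 0.07, did not pass the test. Both are named here after their values were seen. DNAJC8, a co-chaperone that binds SRPK1, rose by 1.02 (SE 0.06, adjusted p = 1.44e-08). PPP1R10, also among the 7 raised, was at 0.153 CPM in MGO and 0.0241 CPM in Control and is named here after its values were seen.

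TNPO3, the import receptor for phosphorylated SR proteins, fell by 0.79 (SE 0.07, adjusted p = 3.05e-07), at 68.5 ± 4.75 CPM in MGO and 118 ± 4.50 CPM in Control. AKT2, of the AKT family that acts upstream of SRPK1, fell by 0.83 (SE 0.06, adjusted p = 6.52e-08), while AKT1 stood at −0.01 and did not pass the test. With the length trend removed TNPO3 stood at −0.26 (adjusted p = 0.00112) and AKT2 at −0.30 (adjusted p = 0.000614).

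Of 6 partners of DYRK1A and NFAT genes tested, 2 rose and 4 fell (median −0.71), beside 38.8% raised and 40.5% lowered over all genes. After removal of the length trend 3 rose and 3 fell, where 9624 rose and 7360 fell of the 21700 genes tested. DCAF7, the scaffold that binds DYRK1A, had 82.2, 73.2 and 76.9 CPM in MGO libraries, against 242, 253 and 257 CPM in Control libraries (log2 fold change −1.70, SE 0.07, adjusted p = 2.84e-10). It was thus lower in every MGO library, where DYRK1A was higher. NFATC2 had a log2 fold change of −1.57 (SE 0.11, adjusted p = 5.19e-08) at 1.118, 1.195 and 1.256 CPM in MGO libraries, against 3.284, 3.801 and 3.478 CPM in Control libraries. DCAF7 stood at −1.11 and NFATC2 at −0.80 without the length trend, both still past the threshold. NFATC1 rose by 0.61 (SE 0.07, adjusted p = 6.83e-06) and the calcineurin regulator RCAN1 by 0.41 (SE 0.06, adjusted p = 3.97e-05). With library size alone neither of these 2 passed, at 0.08 (adjusted p = 0.284) for NFATC1 and −0.12 (adjusted p = 0.101) for RCAN1.

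**Figure D4:**
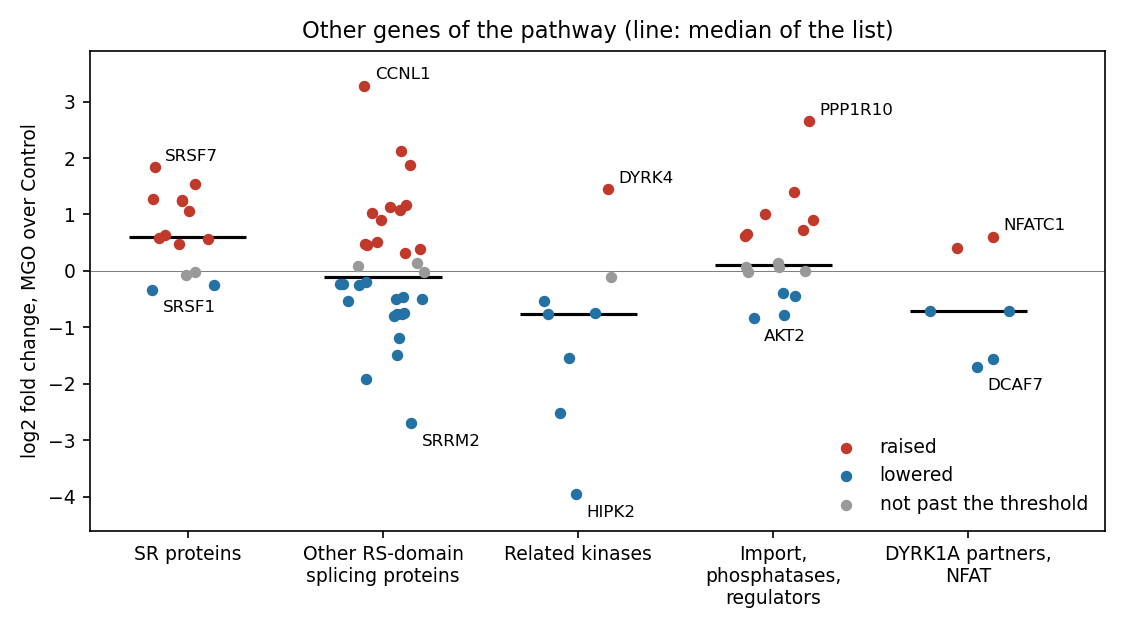
Log2 fold change of MGO over Control (y axis) for the 76 tested genes in 5 lists of substrates, relatives and regulators of the kinases (points), coloured by the edgeR call, with the median of each list as a line. SR proteins lie mostly above 0, related kinases mostly below, and CCNL1 and HIPK2 mark the ends.

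The genes most like each member were sought among 13386 named genes averaging at least 1 CPM. Likeness was the Euclidean distance between log2 CPM values over the 6 libraries, each centred on its Control mean. The nearest to CLK1 were ZBTB2 (distance 0.156) and ZNF222 (0.186), both zinc finger genes, with mean changes in MGO of 2.78 and 2.82 on this centred scale beside 2.75 for CLK1. PANK2 (0.07045) and the snoRNA host gene SNHG16 (0.0726) were nearest to CLK3, and the splicing regulator gene RBM4 (0.0999) and ZBTB6 (0.113) to CLK4. TWSG1 (0.0455) and TMEM30A (0.0588) lay nearest to SRPK1, and DCAF1 (0.03165) and the stress kinase gene MAPK8, which encodes JNK1 (0.0492), to SRPK2. DYRK1A was nearest to ZNF845 (0.0396) and PELI1 (0.07075). Once the length trend was removed, DCAF1 and MAPK8 turned to 0.32 and 0.23 (edgeR adjusted p = 0.000454 and 0.00489). SRPK2 then stood at −0.33. TWSG1 and TMEM30A stood at −1.08 and −0.55, where SRPK1 stood at −0.35. ZBTB2 and ZNF222 stood at 3.12 and 2.61, beside 2.65 for CLK1. For PANK2 and SNHG16 the values were 1.80 and 1.73, beside 1.85 for CLK3. RBM4 and ZBTB6 stood at 1.32 and 2.34, beside 1.55 for CLK4, and ZNF845 and PELI1 at 1.93 and 1.46, beside 1.10 for DYRK1A. All 6 libraries belong to the same 2 groups, so these distances mainly reflect the difference between MGO and Control.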

How the data were processed

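Polyadenylated RNA of 3 MGO and 3 Control samples was sequenced from stranded libraries, per the labels' protocols. The authors deposited unnormalized read counts for each gene. The submitters' processing notes name Trim Galore 0.6.10, STAR 2.7.0a, featureCounts 2.0.6, DESeq2 1.42.0 and the build hg38. Annotation, strand setting and handling of multiply matching reads were not given in the sources used here. Nothing says that replicates were separate cultures, so p-values measure only how these samples varied, possibly for technical reasons. No pair of libraries within a group agreed within sampling noise (lowest chi-square 3.77 per degree of freedom).

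The test was edgeR 4.0.16 in R 4.3.3 (filterByExpr, TMM, quasi-likelihood test, Benjamini-Hochberg adjustment over 23109 genes, threshold 0.05). SE is the absolute log2 fold change over the square root of F. The steps were tested on simulated data. Gene features came from GENCODE release 29 on GRCh38, the assembly of hg38, which matched 56830 of 63643 rows, and 17 promoter windows of the 7 members came from RefSeq. Alternatives were other scalings, filters, DESeq2, limma-voom (limma 3.58.1), a replicate block, removal of the length trend and leaving out each library. The length trend was removed by the median transcript length of each gene. Ratios between members and their alternatives were added after the data were seen. The members and lists were chosen with earlier results of these data known. Named genes were the members, GLO1, the 2 largest rises and falls past the threshold in each list at a mean of at least 1 CPM, the 2 genes nearest to each member, and markers at 0 or highest in their list.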

Additional observations from a re-analysis of the deposited data

How the results depend on the processing

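All 6 members with counts kept their direction under every alternative run. With upper quartile scaling, CLK1 stood at 2.93, CLK3 at 2.02, CLK4 at 1.81, DYRK1A at 1.03, SRPK1 at −0.98 and SRPK2 at −0.70. With library size alone the values were 2.23, 1.32, 1.11, 0.33, −1.67 and −1.40 in the same order. With the length trend removed, CLK1 was at 2.65, DYRK1A at 1.10, SRPK1 at −0.35 and SRPK2 at −0.33. The ratio of summed CLK to summed SRPK was not recomputed under that setting. CLK3 was at 1.81 without a filter on low counts and at 1.80 with a minimum mean of 1 CPM. Leaving out each library gave 2.68 to 2.81 for CLK1, 1.82 to 1.86 for CLK3, 1.56 to 1.69 for CLK4, 0.77 to 0.90 for DYRK1A, −1.23 to −1.09 for SRPK1 and −0.97 to −0.81 for SRPK2, and 3.28 to 3.34 for the log2 change of summed CLK to summed SRPK.

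Raised genes numbered 5673 over the whole table, and 20 in the 5 lists, with library size alone. Lowered genes in the lists numbered 20 with the length trend removed, in place of 32 (raised 45), and lowered genes 44 with library size alone. Over the whole table, library size alone gave 12885 lowered genes. Removal of the length trend gave 9624 raised and 7360 lowered of 21700 genes tested. SRSF11, DCAF1 and MAPK8 turned to 0.07, 0.32 and 0.23 with the length trend removed, and RCAN1 to −0.12 with library size alone. The cause was not tested. Of 480 values of the 32 other named genes under the alternatives, 470 kept direction and call.

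Deviations of MGO and Control libraries with the same replicate number were hardly correlated over all genes tested (0.0382, 0.0176 and 0.0105). Counting noise of low genes enters these values, so they do not decide whether samples were paired. The replicate block gave 8869 raised and 9299 lowered genes. CLK2, DYRK1B, HIPK4 and NFATC4 had too few counts to be tested.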
